A study of Mus musculus with 16 samples.

Results

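The effect of deleting C/EBPβ was measured in mouse epidermis 6 h after ultraviolet B (UVB), across all genes, in 4 knockout and 4 control libraries. Their labels alone chose these 8 libraries from the 16 of the study. Both groups came from mice of the SKH-1 stock, whose lack of fur suits studies of ultraviolet light, at an age of 8 to 12 weeks. Both had received 100 mJ/cm2 of UVB, and the epidermis was taken off by heat shock. The control mice are labelled K5Cre and the knockout mice C/EBPB -/-, with a deletion that the study's design places in the epidermis. K5Cre stands for Cre recombinase under the keratin 5 promoter, which is active in basal keratinocytes and not in Langerhans or T cells. Whether the control mice carry a floxed Cebpb allele, and whether the knockout mice carry K5Cre, is not stated in the labels. The other 8 libraries, 4 from unexposed control and 4 from unexposed knockout mice of the same stock and age, serve below to set the effect beside the same deletion without UVB. The labels give no sex, but Xist counts exceeded Y-linked counts in 2 of the 4 libraries of each group. Among the exposed libraries, numbered by accession, these were control libraries 3 and 4 and knockout libraries 1 and 2. Some readings below split along the same line within a group, and the part of sex in those splits was not tested.

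C/EBPβ is a basic leucine zipper transcription factor that keratinocytes make as they leave the basal layer, and it is known for roles in squamous differentiation and in the survival of keratinocytes after DNA damage. It binds DNA as a dimer with itself or with other members of its family, such as C/EBPα, C/EBPδ and C/EBPγ. UVB damages DNA in keratinocytes, and the skin answers with p53 activation, excision repair, apoptosis and inflammation. Type I interferons act through a receptor and Janus kinases on factors that include STAT2 and IRF9 and bind a short DNA element in the promoters of antiviral genes.

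The exposed control libraries held 33 to 49.7 M counts and the exposed knockout libraries 46.0 to 50.6 M. Pairs of libraries correlated at 0.905 to 0.934 within the exposed controls and at 0.951 to 0.971 within the exposed knockouts, across genes, which are not independent replicates. Thinned to 33 M counts each, between 16976 and 19318 genes were detected in control libraries and between 19198 and 21534 in knockout libraries. Mitochondrial transcripts took 5.24% to 9.65% of control counts and 5.44% to 5.99% of knockout counts. Control library 2 had the most detected genes and the lowest mitochondrial share of the 4 controls. The part of these library differences in the results below was not tested. Whether each library is a separate animal is not in the labels, and the p-values below therefore speak of the spread between these samples alone.

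Cebpb, the targeted gene, read 253, 305, 286 and 320 CPM (counts scaled to a common library size) in exposed control libraries 1 to 4. The exposed knockout libraries read 2.52, 3.03, 0.609 and 1.56 CPM, so the labels and the gene's level go together in all 8 libraries, which are called control 1 to 4 and knockout 1 to 4 from here on. Of its family, only Cebpg, which encodes a C/EBP partner without a strong activation domain of its own, was called besides Cebpb, at 58.7 ± 8.51 CPM in controls and 91.6 ± 5.53 CPM in knockouts (mean ± SD, n = 4 each). Its log2 difference was 0.64 (SE 0.12, edgeR adjusted p = 0.00268). Cebpa stood at 416 ± 79.1 CPM in controls and 468 ± 64.7 CPM in knockouts and did not pass (log2 difference 0.17, adjusted p = 0.598). Cebpd, at 9.76 ± 3.13 and 10.9 ± 1.31 CPM, did not pass either (0.16, adjusted p = 0.801). Tmem189 fell by 2.54 (adjusted p = 7.21e-05), and its first exon overlaps Cebpb on the opposite strand, so reads of the pair cannot be told apart unless the counting used strand.

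In all, 830 of 17741 tested genes were called at an adjusted p under 0.05 (4.68%), with 418 higher (2.36%) and 412 lower (2.32%) in knockout epidermis. These shares stand beside each list's count below, and a list with 1 call can lie near them. Genes called higher changed by a median of 2.12-fold and 85 of them by more than 4-fold, while genes called lower changed by a median of 1.76-fold and 51 by more than 4-fold. The higher group lay at a median of 14.2 CPM over the 8 libraries and the lower group at 59.9 CPM, against 7.52 CPM for all tested genes. Protein-coding genes made up 92.5% of the calls and 82.3% of the genes tested. The groups of 4 libraries did not overlap for 384 of the 418 genes called higher and 338 of the 412 called lower. Among all tested genes the knockouts lay wholly above the controls for 1148 (6.47%) and wholly below them for 859 (4.84%). Calls favour genes with separated groups, so this is a description only. The median log2 difference of all tested genes was 0.04, and 0.29 when the libraries were scaled by total counts only. With total counts only, 1247 genes were called higher and 179 lower (87.4% higher, against 50.4% with the scaling used here), so the balance of the directions depends on the scaling. The number of calls also moved with single libraries, from 229 higher and 190 lower without knockout 2 to 831 higher and 525 lower without control 2. It was 257 higher and 272 lower without control 3, 254 and 238 without knockout 1, and 270 and 250 without knockout 3.

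**Figure D1:**
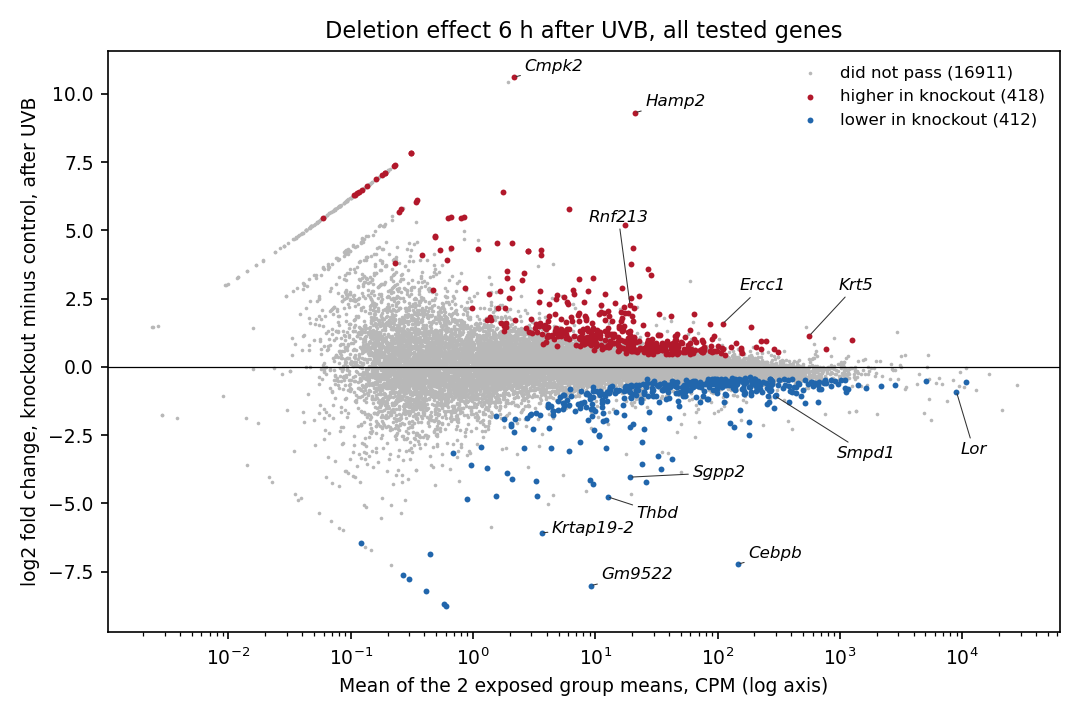
Each point is 1 of 17741 tested genes, by its mean level in the exposed groups (CPM, log axis) and its log2 difference between knockout and control after UVB, with 418 genes called higher in red, 412 called lower in blue and the rest in grey. Cebpb lies at -7.23, far below genes of a similar level, and the genes called higher lie at lower levels (median 14.2 CPM) than those called lower (median 59.9 CPM).

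**Figure D2:**
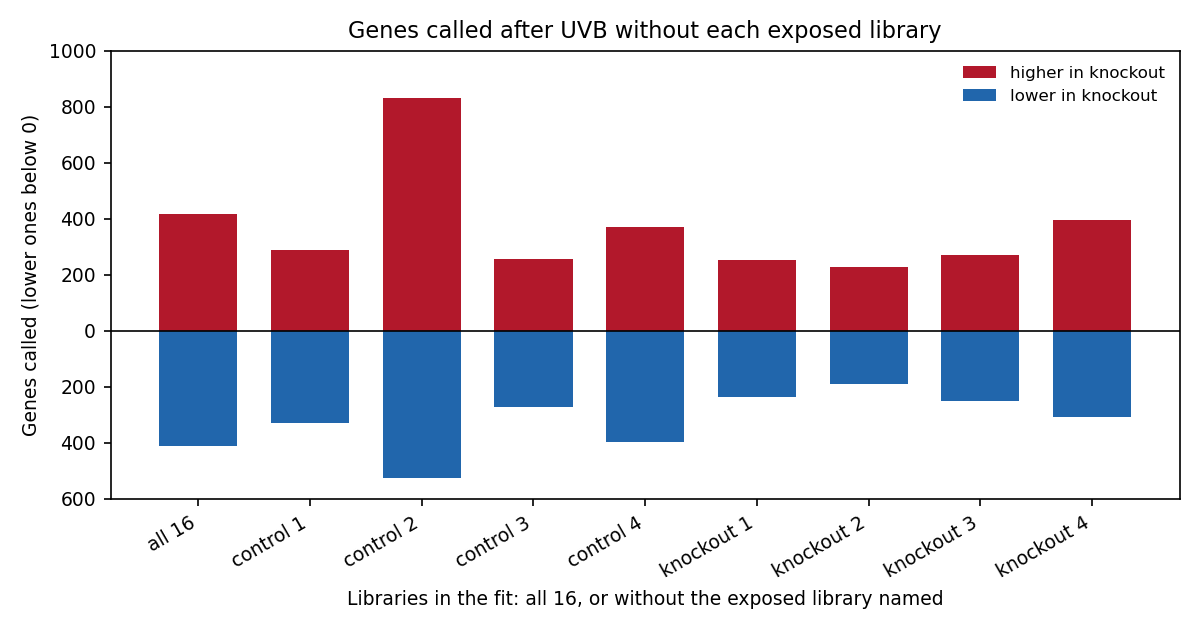
Bars count the genes called higher (above 0) and lower (below 0) in knockout epidermis with all 16 libraries and without each exposed library in turn. Leaving out control 2 raised the number higher from 418 to 831, and leaving out knockout 2 lowered both counts most, to 229 and 190.

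Genes that type I interferon induces were widely higher in knockout epidermis. Of 59 tested effectors on that list, 42 rose (71.2%, against 2.36% of all tested genes) and 0 fell, and the median log2 difference was 1.96. In the fit to the 8 exposed libraries alone 26 of the 59 rose. Summed over the list, the control libraries read 567, 734, 547 and 459 CPM and the knockouts 984, 1230, 1750 and 2220 CPM. All 4 knockout sums exceeded the highest control sum, and the knockouts spread over a wider range. The lower sums of each group, in knockouts 1 and 2 and in controls 3 and 4, came from the libraries with Xist counts above Y-linked counts. The part of sex in this split was not tested. Rnf213, a large ubiquitin ligase, read 4.3, 8.33, 8.89 and 5.04 CPM in controls and 19.8, 33.3, 33.9 and 40.3 CPM in knockouts (log2 difference 2.26, SE 0.27, adjusted p = 7.21e-05). Sp100, a nuclear body protein, ran from 1.74 to 3.65 CPM in controls and from 6.07 to 20.3 CPM in knockouts (2.39, adjusted p = 0.000397). Mx1, an antiviral GTPase, ran from 4.02 to 8.54 CPM and from 14.1 to 45.4 CPM (2.18, adjusted p = 0.00033), and Dtx3l, a ubiquitin ligase partner of PARP9, from 6.36 to 12.3 CPM and from 20.7 to 42.0 CPM (1.87, adjusted p = 7.3e-05). For each of these 4 genes knockout 1 was the lowest of its group and knockout 4 the highest.

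The genes of this list with the largest changes were close to absent from control epidermis. Cmpk2, a mitochondrial nucleotide kinase, had 0 counts in all 4 controls and 1.41, 2.64, 3.96 and 9.37 CPM in knockouts, which is at least 50-fold higher when each control is given 3 counts, or at least 30.7-fold if knockout 4 is left out. Rsad2, which encodes viperin, read 1.5, 2.06, 0 and 0 CPM in controls and 8.22, 20.7, 42.8 and 65.1 CPM in knockouts (log2 difference 5.19, SE 1.05, adjusted p = 0.0156, and 6.03 without control 2). Ifi44 read 0.778 CPM in control 2 and 0 in the other controls, against 4.16 to 19.2 CPM in knockouts (5.77, adjusted p = 0.0128). Without control 2 the remaining controls held 0 counts, so the size of the fitted 12.06 rests on the model. Oasl1, a relative of the oligoadenylate synthetases, and Phf11d were 4.29 (adjusted p = 0.0131) and 4.25 (adjusted p = 0.0124) higher on the log2 scale, and 5.57 and 5.13 without control 2. Control library 2 had the highest control value of Rsad2, Ifi44, Oasl1 and Phf11d. Isg15, the ubiquitin-like modifier often used as the marker of this response, read 11.5 to 52.5 CPM in controls and 42.3 to 174 CPM in knockouts and did not pass (1.65, SE 0.55, adjusted p = 0.111). The groups overlapped for Isg15, as they did for Irf7, the interferon regulatory factor that amplifies the response (32.2 ± 4.95 CPM in controls, 48.8 ± 17.8 CPM in knockouts, log2 difference 0.60, adjusted p = 0.389).

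The promoters of some of these genes hold the DNA element described above, and 4 are shown because they belong to the called effectors with a match and the smallest p-values. Sequences and starts are RefSeq's on GRCm38.p6, all 4 genes lie on the minus strand, each sequence reads 5′ to 3′ along the gene and ends before its start, and capitals mark the matches to the element's core, GAAA, then any 2 bases, then GAAA, or to its reverse complement. The Oas1a stretch is chr5:120907526-120907564, the Oas1g stretch chr5:120887614-120887650, the Oas3 stretch chr5:120777700-120777759 and the Trim30a stretch chr7:104465195-104465254.
Oas1a: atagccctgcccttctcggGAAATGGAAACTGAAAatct
Oas1g: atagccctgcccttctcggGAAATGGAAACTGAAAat
Oas3: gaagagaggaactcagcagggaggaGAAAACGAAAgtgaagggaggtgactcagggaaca
Trim30a: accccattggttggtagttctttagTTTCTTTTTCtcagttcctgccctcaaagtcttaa
Oas1a and Oas1g, which make the 2′-5′ oligoadenylates that activate RNase L, carry 2 overlapping matches each, in the same letters. Their coding sequences are related too, so counts may be shared between them. Oas1a read 4.93, 10.3, 4.81 and 2.95 CPM in controls and 17.5, 25.9, 37.7 and 51.3 CPM in knockouts (log2 difference 2.52, SE 0.38, adjusted p = 0.00132). Oas1g ran from 2.92 to 10.9 CPM and from 21.2 to 59.6 CPM (2.59, adjusted p = 0.00135). Oas3, a longer synthetase, ran from 0.831 to 2.74 CPM and from 6.06 to 19.9 CPM (2.65, adjusted p = 0.00154), and its match lies 66 to 75 bases before the start. Trim30a, a tripartite motif gene, ran from 2.85 to 4.55 CPM and from 6.96 to 20.5 CPM (1.86, adjusted p = 0.00265), with a match on the opposite strand 27 to 36 bases before the start. In all 4 genes, which were picked by their p-values, the groups did not overlap.

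Among windows of 300 bases (250 before to 50 after a start), this element was found in 37.8% of the 45 promoters of called interferon effectors and in 11% of the 427 promoters of all genes called higher. It was found in 2.34% of the 385 promoters of genes called lower and in 3.1% of all 15761 promoters of tested genes. Without the interferon effectors, 7.85% of the promoters of genes called higher held it (95% exact binomial interval 5.36% to 11%). The C/EBP form TTGCNNAA was found in 7.26% of promoters of genes called higher, 11.9% of those called lower (8.88% to 15.6%) and 9.1% of all. The AP-1 site TGANTCA was found in 7.96%, 11.2% (8.2% to 14.7%) and 5.96%, respectively. Both strands were searched, a promoter counted once per motif, and windows of 1 gene can overlap, so the intervals cover counting error only. The promoter table covered 12379 of the 17741 tested genes and 626 of the 830 called.

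Of 15 tested interferon regulatory factors and STAT genes 3 rose (20%, against 2.36% of all tested genes) and 0 fell. With total counts only 5 rose. Stat2 read 28.9 to 39.7 CPM in controls and 50.8 to 103 CPM in knockouts (log2 difference 1.10, SE 0.19, adjusted p = 0.00218). Irf9 read 51.2 to 80.2 CPM and 91.8 to 156 CPM (0.77, adjusted p = 0.0108). For both genes every knockout library was above every control. None of 16 receptors, Janus kinases and inhibitors of the pathway passed, with a median of -0.18, while with total counts only 3 rose and the median was 0.05. All 10 interferon genes examined were under the count filter. Ifnb1, the interferon beta gene, was at 0 counts in exposed controls and at 16 in exposed knockouts, all in 1 library, and Ifnk, made by keratinocytes, had 0 in both.

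Of 10 tested guanylate-binding and immunity-related GTPases 4 rose (40%, against 2.36% of all tested genes) and 0 fell. Without knockout 2, 2 rose. Irgm2 read 1.08, 2.7, 1.16 and 0.765 CPM in controls and 6.25, 8.37, 16.5 and 22.4 CPM in knockouts (log2 difference 3.21, SE 0.44, adjusted p = 0.000422), and Gbp7 1.04 to 2.77 CPM and 5.9 to 14 CPM (2.30, adjusted p = 0.00255). Gbp5 (5.48, adjusted p = 0.0195, with 5 counts in the controls and 338 in the knockouts) was no longer called without knockout 2 (adjusted p = 0.0525). Irgm1 (2.77, adjusted p = 0.0292, and 3.91 without control 2) was no longer called without control 1 or 4 or knockout 2, 3 or 4 (adjusted p up to 0.0897). Among 16 sensors of cytosolic nucleic acid and their adaptors 3 rose (18.8%) and 0 fell (7 rose with total counts only). Cgas, the sensor of cytosolic DNA, read 12.6 to 16 CPM in controls and 19.5 to 26.6 CPM in knockouts (0.71, adjusted p = 0.00747). Ddx58, which encodes the RNA sensor RIG-I, rose by a log2 difference of 1.14 (adjusted p = 0.0131). Tlr3, the endosomal receptor for double-stranded RNA, rose by 2.15 (adjusted p = 0.0218), a call that ended without control 3 or knockout 1 or 3 (adjusted p up to 0.0588).

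Genes of antigen processing for MHC class I also rose, 6 of 20 tested (30%, against 2.36% of all tested genes) with 0 lower. Erap1, the aminopeptidase that trims peptides in the endoplasmic reticulum, read 3.59 to 8.34 CPM in controls and 13.2 to 17.1 CPM in knockouts (log2 difference 1.27, SE 0.21, adjusted p = 0.00151). The immunoproteasome subunit Psmb8 read 27.2, 30.1, 33.6 and 28.6 CPM in controls and 48.3, 56.8, 57.5 and 51.8 CPM in knockouts (0.84, adjusted p = 0.00262), and the subunit Psmb10 rose by 1.35 (adjusted p = 0.00414). Tap2, a subunit of the peptide transporter, rose from 46.3 ± 5.54 to 73.8 ± 5.01 CPM (0.67, adjusted p = 0.00359). The median of the list was 0.21. H2-M2, a nonclassical class I gene outside the list, read 8.55 to 11.1 CPM in controls and 20.7 to 28.0 CPM in knockouts (1.34, SE 0.16, adjusted p = 7.21e-05).

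Markers of Langerhans cells, which take up and present antigen within the epidermis, were higher beside these groups. Of 17 tested 6 rose (35.3%, against 2.36% of all tested genes) and 0 fell, with a median log2 difference of 0.81. Their summed level was 797 to 1030 CPM in the control libraries and 1060 to 1290 CPM in the knockout libraries, and the part of these cells in the interferon results was not tested. In bulk epidermis, more cells of a type and more RNA per cell cannot be told apart. Csf1r, the receptor for macrophage colony-stimulating factor, read 9.62 to 17.4 CPM in controls and 20.8 to 29.4 CPM in knockouts (0.94, adjusted p = 0.0148), and Itgax, which encodes CD11c, 3.61 to 5.38 CPM and 8.59 to 11.9 CPM (1.06, adjusted p = 0.0195). The class II gene H2-Ab1 (1.01, adjusted p = 0.0241) and the invariant chain gene Cd74 (0.96, adjusted p = 0.0271) were higher as well. Each of these 4 calls ended when any 1 of several libraries was left out. The log2 differences then ranged from 0.80 to 1.13 for Csf1r and 0.93 to 1.14 for Itgax. They ranged from 0.90 to 1.11 for H2-Ab1 and 0.83 to 1.02 for Cd74. Without knockout 2 none of the 17 was called, 1 was without control 1 or 4, and 3 were without knockout 1. The Csf1r call ended without control 1 or 3 or knockout 2 (largest adjusted p 0.0575), and the Itgax call without control 4 or knockout 2 (adjusted p up to 0.0794). H2-Ab1 and Cd74 were lost without control 1 or 4 or knockout 1 or 2 (adjusted p up to 0.0838 and 0.087), H2-Ab1 also without knockout 4 (adjusted p = 0.051) and Cd74 also without control 3 (adjusted p = 0.053).

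Chemokines, the secreted guides of leukocytes, gave 4 genes higher and 0 lower of 20 tested (20% higher, against 2.36% of all tested genes). Ccl27a, the chemokine that keratinocytes make for skin-homing T cells, read 3.27, 4.16, 3.47 and 4.17 CPM in controls and 14.8, 16.1, 10.1 and 11.4 CPM in knockouts (log2 difference 1.80, SE 0.32, adjusted p = 0.00299). The other calls were of genes with lower control means than Ccl27a, and of these Cxcl10 and Cxcl11 were nearly absent from controls. Ccl8 ran from 0.998 to 3.57 CPM in controls and from 17.3 to 57.4 CPM in knockouts (4.35, adjusted p = 0.0188), a call lost without control 1, 3 or 4 (adjusted p up to 0.0629). Cxcl10, a ligand of CXCR3, was higher by 4.26 (adjusted p = 0.0299, 5.59 without control 2), a call that ended without control 1, 3 or 4 or knockout 2, 3 or 4 (adjusted p up to 0.071). Cxcl11, named for a ligand of the same receptor, is typed as a polymorphic pseudogene in the annotation. It had 5 counts in controls and 190 in knockouts (4.79, adjusted p = 0.0195, and 0.052 without knockout 4). All 5 control counts of Cxcl11 lay in control 2, so the size of the fitted 8.41 without that library rests on the model. Without control 1 or 4, 2 chemokines were called.

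**Figure D3:**
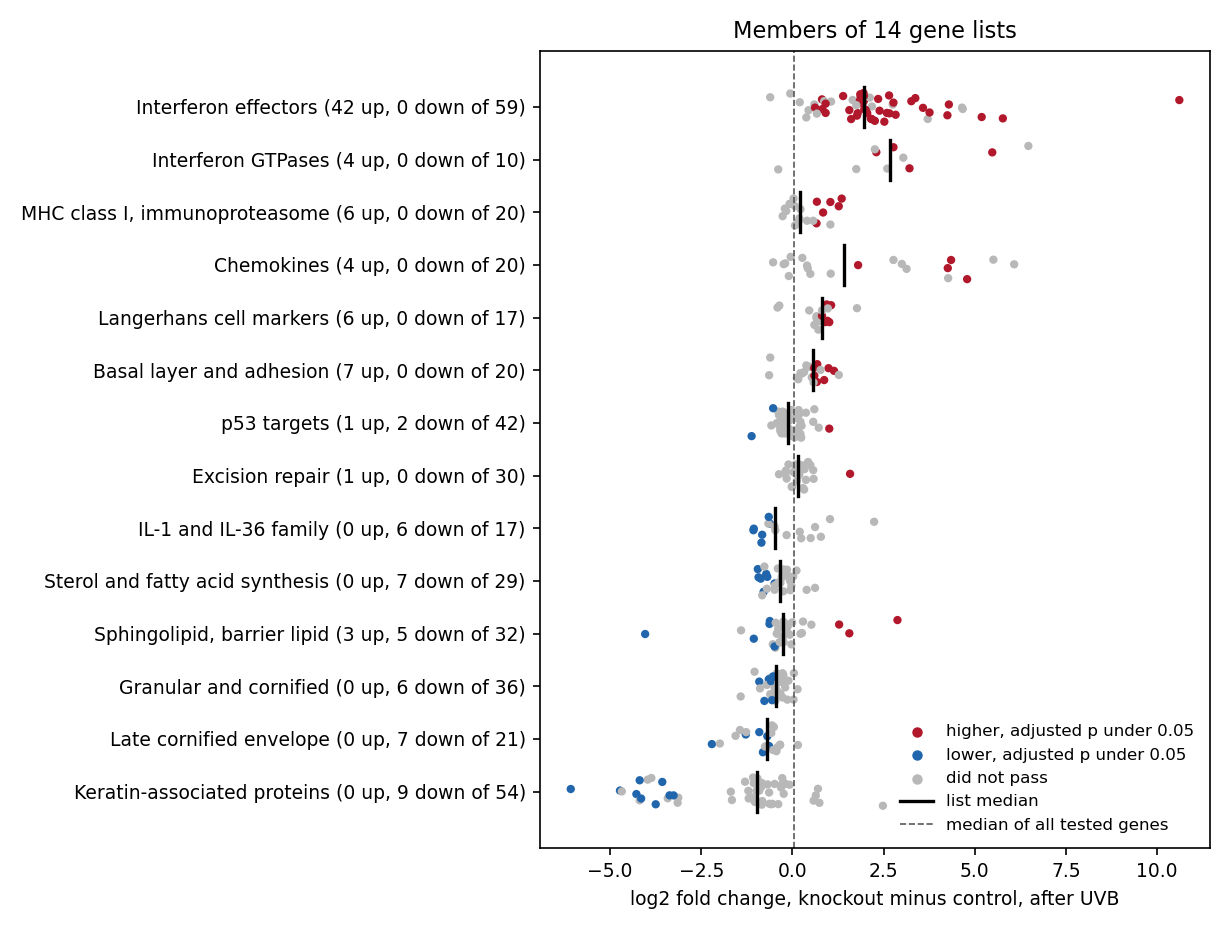
Each point is a tested member of 1 of 14 gene lists, placed by its log2 difference between knockout and control after UVB, in red or blue where called and grey where not, with the list's median as a black bar and the median of all tested genes (0.04) as a dashed line. Medians stand at 1.96 for interferon effectors (57 of 59 right of 0), 0.55 for basal genes (18 of 20) and -0.11 for p53 targets, and at -0.69 for late cornified envelope genes (20 of 21 left of 0) and -0.98 for keratin-associated protein genes (49 of 54).

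Genes of the interleukin 1 and 36 family encode alarm cytokines that keratinocytes store and release, with their receptors and antagonists. Of 17 tested members 6 fell and 0 rose (2.32% of all tested genes fell), and 7 of the 17 had a positive log2 difference (median -0.47). Il1f6, which encodes IL-36α, read 282, 461, 295 and 355 CPM in controls and 184, 145, 168 and 167 CPM in knockouts (-1.07, SE 0.15, adjusted p = 0.000412). The decoy receptor gene Il1r2 read 35.0 to 48.3 CPM and 18.1 to 24.8 CPM (-1.06, SE 0.18, adjusted p = 0.00217). Il1f5, which encodes the IL-36 receptor antagonist, was the most abundant of those named, at 1710 ± 373 CPM in controls and 1090 ± 80.0 CPM in knockouts (-0.65, adjusted p = 0.0111). Il18 fell from 336 ± 65.4 to 187 ± 54.7 CPM (-0.85, adjusted p = 0.0125), a call that ended without knockout 2 (adjusted p = 0.0553). The lower genes thus included an agonist, a decoy receptor and an antagonist. With total counts only, 3 of the 17 fell. Of 20 NF-κB subunits and feedback genes 1 was called, the subunit gene Rel, at 63.7 to 85.2 CPM in controls and 37.3 to 53.9 CPM in knockouts (-0.64, adjusted p = 0.011). With total counts only its difference was -0.39 and did not pass (adjusted p = 0.112), and 3 other members of the list rose.

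Among 21 other epidermal cytokine genes and receptors 2 rose and 2 fell (4 and 0 with total counts only), and each of these calls ended without at least 5 of the exposed libraries. Il24, a cytokine of the IL-10 family, was higher by 2.29 on the log2 scale (adjusted p = 0.0396, up to 0.122 without any 1 of the 8 exposed libraries). Tnfsf10, which encodes the death ligand TRAIL, was higher by 1.70 (adjusted p = 0.0468, up to 0.113 without control 1, 2 or 3 or any knockout library). Il13ra2, a decoy receptor for IL-13, was lower by 2.26 (log2 difference -2.26, adjusted p = 0.0456, up to 0.121 without any 1 of the 8 exposed libraries). Osmr, the oncostatin M receptor gene, was lower by 0.60 (log2 difference -0.60, adjusted p = 0.0188, up to 0.0724 without control 1 or 3 or knockout 1, 2 or 3).

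Basal keratinocytes hold to the basement membrane through integrins and hemidesmosomes. Of 20 tested genes for basal keratins, hemidesmosomes and basement membrane 7 rose (2.36% of all tested genes did) and 0 fell, with a median log2 difference of 0.55. Krt5, the type II keratin of basal cells, read 383, 487, 266 and 271 CPM in controls and 761, 791, 737 and 807 CPM in knockouts (1.14, SE 0.23, adjusted p = 0.00641). Every knockout library was above every control, and the knockouts differed little among themselves. Krt14, the gene of its partner keratin, read 1830, 2870, 1170 and 1040 CPM in controls and 3010, 4040, 4750 and 4890 CPM in knockouts and did not pass (1.27, SE 0.36, adjusted p = 0.0593), although the groups did not overlap. Itga3, the α3 integrin that binds laminin, read 26 to 36 CPM and 48.7 to 71.3 CPM (0.99, SE 0.15, adjusted p = 0.000599). The hemidesmosome genes Col17a1 and Itgb4 rose, Col17a1 from 175 to 267 CPM in controls to 337 to 382 CPM in knockouts (0.67, adjusted p = 0.00428) and Itgb4 from 78.7 ± 5.59 to 118 ± 15.3 CPM (0.59, adjusted p = 0.00747). Itga6, partner of Itgb4, rose by 0.60 (adjusted p = 0.0106). Lama3, a gene of the basement membrane, rose by 0.68 (adjusted p = 0.0283, up to 0.103 without control 1 or 3 or knockout 2, 3 or 4). With total counts only, 12 of the 20 rose. None of 17 desmosome genes passed (median 0.12), and 2 rose with total counts only.

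Late cornified envelope genes encode proteins that are crosslinked into the envelope of dead keratinocytes. Of 21 tested 7 fell (33.3%, against 2.32% of all tested genes) and 0 rose. The log2 difference was negative for 20 of the 21, with a median of -0.69. Lce1f read 1600, 1740, 1270 and 1240 CPM in controls and 701, 668, 856 and 898 CPM in knockouts (-0.91, SE 0.16, adjusted p = 0.00299). Lce1b fell from 892 ± 113 to 507 ± 92.6 CPM (-0.81, adjusted p = 0.00865) and Lce1a2 from 941 ± 102 to 387 ± 210 CPM (-1.28, adjusted p = 0.0124). Lce1k had the largest change of those called, from 224 ± 54.0 to 48.3 ± 42.1 CPM (-2.21, adjusted p = 0.0201). Knockout library 1 held the most of both Lce1a2 (690 CPM) and Lce1k (111 CPM) in its group. The Lce1k difference was -3.03 without knockout 1, and its call ended without knockout 2, 3 or 4 (adjusted p up to 0.0625). The count of 7 became 3 without knockout 2, 4 without knockout 4, 4 with total counts only, and 13 with a term for sex. Counts may be shared among these closely related genes.

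Of 36 other granular and cornified layer genes 6 fell (16.7%, against 2.32% of all tested genes) and 0 rose. The log2 difference was negative for 33 (median -0.45). Lor, which encodes loricrin, the main envelope protein, read 14200, 11900, 11100 and 9490 CPM in controls and 5880, 5970, 6880 and 6180 CPM in knockouts (-0.91, SE 0.20, adjusted p = 0.0105). The protease gene Klk9 read 1100 to 1770 CPM and 676 to 940 CPM (-0.77, SE 0.16, adjusted p = 0.00747). Fewer members were called without single libraries, with 3 lower without control 1 or 3 or knockout 1 and 2 lower without knockout 2. By total counts alone 2 were lower. None of 15 small proline-rich protein genes passed after UVB, with a median of -0.09 and 6 positive log2 differences (1 rose and the median was 0.14 with total counts only). In unexposed epidermis 5 of the 15 rose and the median was 2. No gene passed the test of the difference between the conditions given below, so these counts do not show that the conditions differed.

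Proteins that fill the hair shaft between its keratins come from the keratin-associated protein genes. Of 54 tested 9 fell (16.7%, against 2.32% of all tested genes) and 0 rose, and all 9 lie on chromosome 16. The list's summed level was 1080 to 4390 CPM in controls and 145 to 1610 CPM in knockouts, so the groups overlapped. Krtap19-2 read 8.84, 3.16, 13.5 and 3.23 CPM in controls and 0, 0.151, 0.133 and 0.128 CPM in knockouts (log2 difference -6.08, SE 0.84, adjusted p = 0.000419). Krtap20-2 ran from 2.01 to 9.76 CPM and from 0.0853 to 0.716 CPM (-4.19, adjusted p = 0.00939, and -4.86 without knockout 2). Krtap6-3 (-4.15, adjusted p = 0.0182) was lost without knockout 3 (adjusted p = 0.0543). Krtap16-3 (-4.28, adjusted p = 0.0335, and -3.68 without control 3) was lost without control 1 or 3 or any knockout library (adjusted p up to 0.0995). The 9 became 4 without control 1 or knockout 1 or 3, 3 without control 3 or knockout 2, and 5 without knockout 4. In unexposed epidermis 9 fell as well, with a median of -1.61 against -0.98 after UVB. None of 30 hair keratin and root sheath genes passed (1 rose with total counts only), with summed levels of 1300 to 5330 CPM in controls and 424 to 3990 CPM in knockouts.

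Genes of sterol and fatty acid synthesis were lower in part, 7 of 29 (24.1%, against 2.32% of all tested genes) with 0 higher. The log2 difference was negative for 25 of the 29 (median -0.33). The 7 all encode enzymes of the cholesterol pathway. Pmvk, the phosphomevalonate kinase, read 110, 139, 127 and 129 CPM in controls and 82.8, 74.9, 70.3 and 63.1 CPM in knockouts (log2 difference -0.79, SE 0.15, adjusted p = 0.00363). Lss, which closes the sterol rings, fell from 106 ± 23.5 to 64.5 ± 6.51 CPM (-0.72, adjusted p = 0.00998), and Mvd, the mevalonate decarboxylase, from 51.5 ± 17.9 to 27.0 ± 5.87 CPM (-0.93, adjusted p = 0.0108), with overlapping groups for Mvd. The count was 4 without knockout 3, 3 in the fit to the 8 exposed libraries alone, and 1 with total counts only.

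Sphingolipid and barrier lipid genes went both ways, with 3 higher (9.38%) and 5 lower (15.6%) of 32, against 2.36% and 2.32% of all tested genes. The median was -0.25 (4 higher, 2 lower and a median of 0.01 with total counts only). Sgpp2, which removes the phosphate of sphingosine 1-phosphate, read 20.3, 42.1, 28.7 and 53.4 CPM in controls and 2.3, 2.19, 1.16 and 3.14 CPM in knockouts, 16.5-fold lower (-4.04, SE 0.37, adjusted p = 5.83e-06). It lies at chr1:78310345-78420289 of GRCm38 and was the firmest call after Cebpb among the genes lower in knockouts. Smpd1, the acid sphingomyelinase, read 375, 460, 365 and 384 CPM in controls and 194, 175, 195 and 197 CPM in knockouts (-1.06, SE 0.13, adjusted p = 0.000116). S1pr3, a receptor for sphingosine 1-phosphate, rose from 7.31 ± 1.85 to 17.8 ± 2.33 CPM (1.28, adjusted p = 0.00702). Degs1, the ceramide desaturase, fell by 0.62 (adjusted p = 0.0164), a call lost without knockout 1 (adjusted p = 0.0666). The alkaline ceramidase gene Acer2 read 57.0 and 43.5 CPM in knockouts 1 and 2 but 5.65 and 10.8 CPM in knockouts 3 and 4, against 2.22 to 6.86 CPM in controls (2.88, adjusted p = 0.0172, up to 0.0652 without control 1 or 3). Knockouts 1 and 2 were the exposed knockouts with Xist counts above Y-linked counts, and the part of sex was not tested. The lipoxygenase gene Alox12e was higher by 1.56 (adjusted p = 0.0254, up to 0.0864 without control 3 or 4 or knockout 1 or 4). Without control 3, 1 gene of the list rose. The number lower was 3 without control 3 or 4 or knockout 2 or 3 and 2 without knockout 1.

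**Figure D4:**
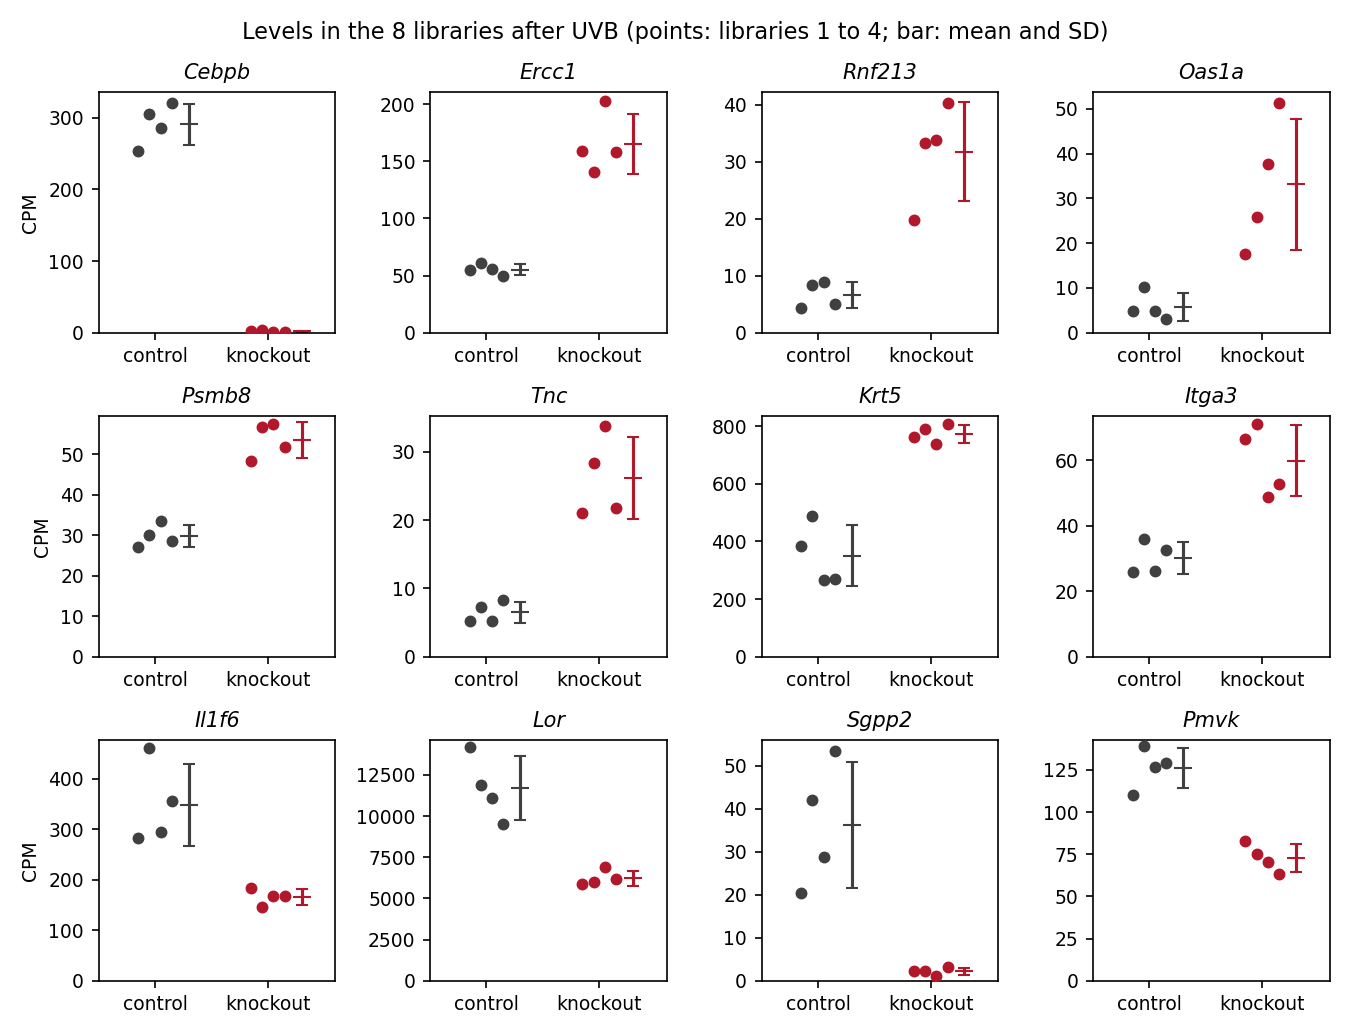
Each panel shows 1 gene's level (CPM, axis from 0) in exposed controls 1 to 4 (grey) and exposed knockouts 1 to 4 (red), with the mean and SD beside them. The groups do not overlap in any of the 12 panels, which show genes picked from the calls, so this is a description only. Krt5 lies at 737 to 807 CPM in all knockouts, and Rnf213 and Oas1a are lowest in knockout 1 and highest in knockout 4.

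Targets of p53 did not move as a group. Of 42 tested 1 rose (2.38%, against 2.36% of all tested genes), 2 fell (4.76%, against 2.32%) and 39 did not pass, with a median of -0.11. With total counts only 4 rose, 0 fell and the median was 0.14. Without control 2 there were 3 of each, without knockout 4 there were 2 of each, and without control 1 or 3 or knockout 1, 2 or 3 at most 1 of each. Cdkn1a, the cell cycle inhibitor p21, read 1480, 1110, 1140 and 962 CPM in controls and 689, 975, 900 and 1240 CPM in knockouts (log2 difference -0.30, SE 0.18, adjusted p = 0.352). Mdm2, the ubiquitin ligase for p53, read 189 to 279 CPM and 157 to 256 CPM (-0.26, adjusted p = 0.337). Trp53 itself read 21.9 ± 5.75 CPM and 33.2 ± 6.11 CPM (0.60, SE 0.20, adjusted p = 0.0827). For all 3 the groups overlapped. Eda2r, a receptor for ectodysplasin, was lower by 1.12 (-1.12, adjusted p = 0.0292, up to 0.111 without control 1 or knockout 1, 2 or 3). Btg2, an antiproliferative gene, was lower by 0.53 (-0.53, adjusted p = 0.0481, up to 0.152 without control 1 or 3 or knockout 1, 2 or 3), and Ak1, adenylate kinase 1, was higher by 1.01 (adjusted p = 0.0492, up to 0.152 without control 3 or 4 or knockout 1, 2 or 3).

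Of 30 nucleotide excision repair genes 1 was called (5, all higher, with total counts only), Ercc1, which forms the 5′ incision nuclease with XPF. It read 55.0, 60.7, 55.6 and 49.7 CPM in controls and 159, 141, 203 and 158 CPM in knockouts, 2.99-fold higher (log2 difference 1.58, SE 0.13, adjusted p = 9.3e-07). This was the smallest p-value of all 17741 genes. Ercc1 lies at chr7:19344778-19356524 of GRCm38, on the plus strand, and its difference in unexposed epidermis was 1.51. Of 31 BCL2 family members, caspases and their inhibitors 1 rose and 1 fell (3.23% each, near the 2.36% and 2.32% of all tested genes). With total counts only 5 rose and 0 fell. Cflar, the caspase 8 inhibitor gene, was lower by 0.45 (-0.45, adjusted p = 0.0345, up to 0.126 without control 1 or 2 or knockout 1 or 2). Of 31 cell cycle genes 2 rose (6.45%, against 2.36% of all tested genes), and 6 rose with total counts only. The log2 difference was positive for 27, and the median was 0.51. Without control 1 or knockout 1 or 2, 1 rose. Mki67, which encodes the proliferation antigen Ki-67, read 17.5, 25.2, 19.7 and 18.4 CPM in controls and 45.8, 34.2, 35.6 and 26.8 CPM in knockouts (0.82, adjusted p = 0.0106). Ccnb1, the mitotic cyclin B1 gene, was higher by 2.67 (adjusted p = 0.0279, up to 0.0766 without control 1 or knockout 1 or 2).

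Immediate early and AP-1 genes gave 1 call of 30, with 23 negative log2 differences and a median of -0.21. None was called with total counts only, when the median was 0.04. The called gene was Jund, a Jun family member, at 185 to 218 CPM in controls and 132 to 150 CPM in knockouts (-0.50, SE 0.11, adjusted p = 0.0111, and -0.25 with adjusted p = 0.244 by total counts only). Of 16 dual-specificity MAP kinase phosphatases 2 fell, and 0 fell and 1 rose with total counts only. Dusp5, a nuclear ERK phosphatase, read 137 to 160 CPM and 87.3 to 107 CPM (-0.63, adjusted p = 0.00835, and -0.39 with adjusted p = 0.131 by total counts only). Dusp14 was lower by 0.56 (-0.56, adjusted p = 0.034, up to 0.111 without control 1 or 2 or any knockout library). No EGF receptor gene or ligand of 14 passed, and 1 rose with total counts only. Of 21 Notch genes and Wnt ligands 4 rose (19%, against 2.36% of all tested genes) and 1 fell (4.76%, against 2.32%). The number higher was 1 without knockout 1, 2 or 3 and 2 without control 1, 3 or 4, while 0 fell with total counts only. Wnt10a, a ligand of the hair follicle and epidermis, rose from 5.8 ± 2.22 to 14.9 ± 1.71 CPM (1.36, adjusted p = 0.00641). The Notch ligands Dll1 (1.10, adjusted p = 0.0374) and Jag2 (0.68, adjusted p = 0.043), the ligand Wnt11 (0.98, adjusted p = 0.0381) and the Notch coactivator Maml1 (-0.46, adjusted p = 0.0358) each lost their call without 5 or more of the exposed libraries. The adjusted p reached 0.112 for Dll1 without control 2, 3 or 4 or any knockout library, and 0.148 for Jag2 without control 1 or 3 or knockout 1, 2 or 3. It reached 0.143 for Wnt11 without control 1, 2 or 4 or knockout 1, 2 or 3, and 0.11 for Maml1 without control 1 or 2 or any knockout library.

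Metallothioneins, small proteins that bind zinc, rose, with Mt1 and Mt2 the only calls of 13 in their list. Mt2 read 41.6, 41.0, 24.4 and 25.6 CPM in controls and 67.7, 112, 86.8 and 72.8 CPM in knockouts (log2 difference 1.36, SE 0.26, adjusted p = 0.00643), and Mt1 5.48 to 15.6 CPM and 21.0 to 31.9 CPM (1.26, adjusted p = 0.0104). Without control 2 or with total counts only, 4 members rose. Of 19 prostaglandin genes 1 rose, the transporter gene Slco2a1, from 30.7 ± 6.10 to 60.7 ± 11.2 CPM (0.98, SE 0.16, adjusted p = 0.00109), and 2 rose without control 2 or 3 and 3 with total counts only. The NRF2, retinoid and heat shock lists gave 1 call each that ended without most of the exposed libraries. These were Hmox1 of 22 NRF2 targets (0.58, adjusted p = 0.0381, up to 0.117 without control 3 or 4 or any knockout library), and Lrat of 16 retinoid genes (1.73, adjusted p = 0.0448, 2.39 without control 2, up to 0.145 without any 1 of the other 7). The last was Hspb1 of 24 unfolded protein and heat shock genes (-0.57, adjusted p = 0.0419, up to 0.131 without control 1, 2 or 3 or knockout 1, 2 or 3). Without control 2, 4 NRF2 targets and 3 retinoid genes rose, and with total counts only 6 and 3, while 2 heat shock list genes rose and 0 fell. Of 18 clock genes 3 fell (16.7%, against 2.32% of all tested genes), Tef (-0.59, adjusted p = 0.0148), Rora (-0.62, adjusted p = 0.029) and Nr1d1 (-0.69, adjusted p = 0.0374). The number lower was 0 without knockout 2, 1 without knockout 3 and 0 with total counts only. Tef was lost without knockout 2 or 3 (adjusted p up to 0.0523), Rora without control 4 or knockout 1, 2 or 4 (up to 0.11) and Nr1d1 without control 1, 2 or 3 or knockout 1, 2 or 3 (up to 0.118).

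Genes of wounded or inflamed keratinocytes went both ways, with 5 higher (15.6%) and 3 lower (9.38%) of 32, against 2.36% and 2.32% of all tested genes. Vegfa, the vascular growth factor gene, read 58.4, 66.0, 52.9 and 57.9 CPM in controls and 123, 134, 139 and 114 CPM in knockouts (log2 difference 1.12, SE 0.24, adjusted p = 0.0111). Thbd, which encodes thrombomodulin, read 15.7, 50.9, 17.2 and 13.6 CPM in controls and 0.31, 0.302, 1.41 and 1.58 CPM in knockouts (-4.76, SE 0.74, adjusted p = 0.00217, and -4.08 without control 2). Besides these, Muc16, Plau, Il24 and Hmox1 were higher and the antimicrobial genes Slpi and Defb3 lower, and without any 1 of the 8 exposed libraries only 1 to 3 members were called higher. Without control 1 or 2 or knockout 1, 2 or 3, 1 member was lower. Of the membrane mucin Muc16 (3.51, adjusted p = 0.0289) the call ended without control 2 or 4 or knockout 1, 2 or 3 (adjusted p up to 0.0821), and the difference was 4.56 without control 1. Of the urokinase gene Plau (1.15, adjusted p = 0.0334) it ended without control 1, 3 or 4 or knockout 1, 2 or 3 (up to 0.104). Slpi (-2.05, adjusted p = 0.038) and Defb3 (-1.87, adjusted p = 0.0429) were lost without control 1 or 2 or knockout 1, 2 or 3 (up to 0.111 and 0.125), Slpi also without control 3 and Defb3 also without control 4 or knockout 4. The Il24 and Hmox1 calls ended as given for their lists, up to 0.122 and 0.117.

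Of 17 matrix metalloproteinases and inhibitors 3 rose (17.6%, against 2.36% of all tested genes) and 1 fell (5.88%, against 2.32%). With total counts only 3 rose and 0 fell. Mmp9 (2.26, adjusted p = 0.0249), Mmp13 (1.68, adjusted p = 0.038) and the membrane-bound Mmp14 (0.67, adjusted p = 0.0328) were higher and the inhibitor Timp2 lower (-0.62, adjusted p = 0.0334). Without control 1 or 3 or knockout 2 or 3 none of the 3 was called higher (adjusted p up to 0.0943, 0.114 and 0.126), and 1 was without control 4 or knockout 1. Mmp13 alone also ended without knockout 4 (adjusted p = 0.07). Timp2 was lost without control 2 or any knockout library (up to 0.1).

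Markers of further cell types were examined because heat-shock sheets can hold them. None of 17 tested T cell markers passed (median 0.37), nor any tested marker of mast cells, melanocytes, skeletal muscle, adipocytes, sebaceous glands, erythroid or Schwann cells. Few could be tested for some, 2 of 8 mast cell, 4 of 9 muscle, 3 of 7 adipocyte and 3 of 6 erythroid markers. Log2 differences were negative for 6 melanocyte markers and positive for 1 (median -0.75), and negative for 7 sebaceous markers and positive for 2 (median -0.81). Fibroblast markers summed to 58.5 to 89.3 CPM in controls and 148 to 174 CPM in knockouts, and 2 of 12 rose. Postn, which encodes the matrix protein periostin, read 17.1, 30.7, 24.8 and 33.2 CPM in controls and 94.0, 90.4, 109 and 116 CPM in knockouts (log2 difference 1.95, SE 0.33, adjusted p = 0.00363) and was the most abundant marker of the list in both groups. Much of the rise in the fibroblast sum was that of Postn, while the list's median log2 difference was 0.40. Fap, fibroblast activation protein, was higher by 1.72 (adjusted p = 0.0124). The fibrillar collagen markers Col1a1, Col1a2 and Col3a1, looked up after their values were seen, lay at 0.423 to 1.57 CPM in the group means and did not pass. Without control 2, 4 fibroblast markers rose. Endothelial markers summed to 9.7 to 28.4 CPM in controls and 31.6 to 51.9 CPM in knockouts. Of 6 tested 1 rose, Flt1, a receptor for VEGF, from 12.8 ± 6.08 to 36.5 ± 10.2 CPM (1.52, adjusted p = 0.00363), and 2 rose without control 1 or 4. Flt1 made up most of each sum, at 6.18 to 20.5 CPM in controls and 27.2 to 46.9 CPM in knockouts. The log2 difference was positive for 3 of the 6 and negative for 3, so the sums do not show a rise of the list as a whole. The endothelial genes Cdh5, Emcn and Kdr, also looked up afterwards, had a mean of 0 CPM in controls and were under the count filter. The part of these cells in the results was not tested. Neutrophil markers, 8 of 15 tested, summed to 721 to 1130 CPM in controls and 350 to 607 CPM in knockouts, with Mmp9 higher and Il1r2 lower. Il1r2 (means of 42.6 and 20.5 CPM) and Mmp9 (3.81 and 18.4 CPM) made up little of these sums. The other tested members did not pass, and log2 differences were positive for 3 and negative for 5. Whether the number of neutrophils differed was not tested. Of 11 monocyte markers Csf1r rose, as described with the Langerhans markers.

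Matrix and membrane genes outside the lists were among the firmest calls. Tnc, which encodes the matrix protein tenascin C, read 5.21, 7.3, 5.27 and 8.27 CPM in controls and 21.0, 28.3, 33.8 and 21.8 CPM in knockouts, 4.03-fold higher (log2 difference 2.01, SE 0.21, adjusted p = 1.78e-05). Tnxb, tenascin X, read 2.31 to 3.25 CPM and 7.62 to 12.0 CPM (1.82, SE 0.19, adjusted p = 1.78e-05). The heparan sulfate proteoglycan genes Sdc3 (1.69, adjusted p = 0.000113) and Agrn (1.18, adjusted p = 0.000124) rose from 9.73 ± 2.57 to 31.3 ± 4.94 CPM and from 19.8 ± 1.78 to 44.9 ± 8.53 CPM. Among the genes lower, 5430419D17Rik read 19.0 to 25.3 CPM in controls and 2.56 to 2.94 CPM in knockouts (-2.96, SE 0.34, adjusted p = 6.65e-05). Ccdc136 fell by 2.75 (adjusted p = 7.21e-05), Plekhm3 by 1.65 (adjusted p = 7.74e-05), and Plpp1, a phospholipid phosphatase gene, by 2.09 (adjusted p = 0.000103). Alg14, which adds the second sugar of N-linked glycans, read 17.5, 18.5, 30.9 and 22.7 CPM in controls and 7.72, 7.62, 7.37 and 5.5 CPM in knockouts (-1.67, adjusted p = 7.21e-05). Hacd2, a dehydratase of very long chain fatty acid elongation, fell from 158 ± 33.1 to 65.5 ± 4.8 CPM (-1.27, adjusted p = 9.82e-05), and Ctsa, the lysosomal protective protein, from 651 ± 63.5 to 309 ± 32.5 CPM (-1.08, adjusted p = 0.000111). For every gene of this paragraph the groups did not overlap and no library decided the call, but these genes were picked for the smallest p-values.

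The largest changes outside the interferon list came from genes at low counts in 1 group. Hamp2, a hepcidin gene, read 0.222, 0, 0.0304 and 0 CPM in controls and 91.7, 58.5, 1.71 and 16.5 CPM in knockouts (log2 difference 9.31, SE 1.79, adjusted p = 0.0124). It was 11.72 without control 1 and 8.59 without knockout 1. Knockouts 1 and 2, with the higher Hamp2 readings, were the exposed knockouts with Xist counts above Y-linked counts. Npy, which encodes neuropeptide Y, had counts in control 2 only among the controls and 1.87 to 5.58 CPM in knockouts (6.39, adjusted p = 0.00352). Without control 2 the fitted Npy difference was 10.28, with 0 counts in the remaining controls, so its size rests on the model. The processed pseudogene Gm7334 (4.54, adjusted p = 0.000305) and Prr16 (4.32, adjusted p = 0.0073) gave 5.33 and 5.23 without control 2. Slc5a11, a sodium-coupled inositol transporter gene, was higher by 4.54 (adjusted p = 0.014, 5.63 without control 4), and its call ended without knockout 1 (adjusted p = 0.0569). Gm9522, also a processed pseudogene, was lower by 8.01 (log2 difference -8.01, adjusted p = 0.043). However, it read 0.61 and 0.343 CPM in controls 1 and 2 and 33.8 and 39.0 CPM in controls 3 and 4. Controls 3 and 4 were the exposed controls with Xist counts above Y-linked counts. The Gm9522 call ended without control 3 or 4 or any knockout library (adjusted p up to 0.131), with -7.35 without control 4 and -9.31 without knockout 1. On chromosome 16, 1110025L11Rik (-4.22, adjusted p = 0.00779) and Gm10061 (-4.73, adjusted p = 0.00464, -4.12 without control 1 and -5.91 without knockout 2) fell beside the keratin-associated protein genes. A830036E02Rik on chromosome 11 fell by 4.11 (adjusted p = 0.0143).

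The same deletion was then compared in unexposed epidermis, which shares no library with the exposed comparison but shares the genotypes. Both comparisons came from the same fit to all 16 libraries, with 1 filter and 1 estimate of spread per gene. Calls made in both are therefore not independent. In unexposed epidermis 373 of 17741 genes were called (2.1%), 171 higher and 202 lower. Of the genes called after UVB, 219 were called in the same direction without UVB, which is 26.4% of the exposed calls and 58.7% of the unexposed ones. The sign was the same in unexposed epidermis for 93.5% of the genes higher after UVB and 96.6% of those lower, beside 64.8% of all tested genes. The median log2 difference of the genes higher was 1.08 after UVB and 0.54 unexposed, and that of the genes lower was -0.82 and -0.54. These genes were picked for their size after UVB, so the smaller unexposed medians are a description only. At an adjusted p under 0.01 in both comparisons 56 genes were shared. Ercc1, Tnc, Postn and Sdc3 had nearly the same log2 difference in both conditions, 1.58 and 1.51, 2.01 and 2.09, 1.95 and 1.95, and 1.69 and 1.70. Of the 59 interferon effectors 21 rose in unexposed epidermis, with a median of 1.43.

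No gene passed the test of the difference between the exposed and the unexposed deletion effect (edgeR, 0 of 17741). At an unadjusted p under 0.05 there were 1043 genes (5.88%), while DESeq2 called 31 genes and limma voom 0. The called genes with the smallest p in this test are given as values. Osmr was lower by 0.60 after UVB and higher by 0.62 unexposed (adjusted p = 0.0267), the only gene called in opposite directions (difference -1.22, adjusted p = 0.114). Its call after UVB ended when any 1 of several libraries was left out, as described above. Alg14 differed by -1.67 after UVB and -0.36 unexposed (difference -1.31, adjusted p = 0.312). Gm42743 was higher by 1.48 after UVB (adjusted p = 0.00414) and by 3.62 unexposed (difference -2.15, adjusted p = 0.251). Zfp984, a zinc finger gene, was higher by 4.36 after UVB (adjusted p = 0.00106, 5.42 without control 4) and by 0.47 unexposed (difference adjusted p = 0.365). Cmpk2 read 1.51 ± 1.26 CPM in unexposed controls and 2.54 ± 2.25 CPM in unexposed knockouts (log2 difference 0.76, adjusted p = 0.848), and the adjusted p of its difference was 0.261. Trpv1, the capsaicin receptor gene, had 0 counts in exposed controls and 56 across the knockouts, which makes it at least 3.1-fold higher with 3 counts given to each control (adjusted p = 0.0286, up to 0.0616 without control 1 or 3 or knockout 1, 2 or 3). Unexposed, it read 0.689 ± 0.212 CPM in controls and 0.053 ± 0.0567 CPM in knockouts (log2 difference -3.69, adjusted p = 0.156), the opposite sign, and its difference gave an adjusted p of 0.312.

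**Figure D5:**
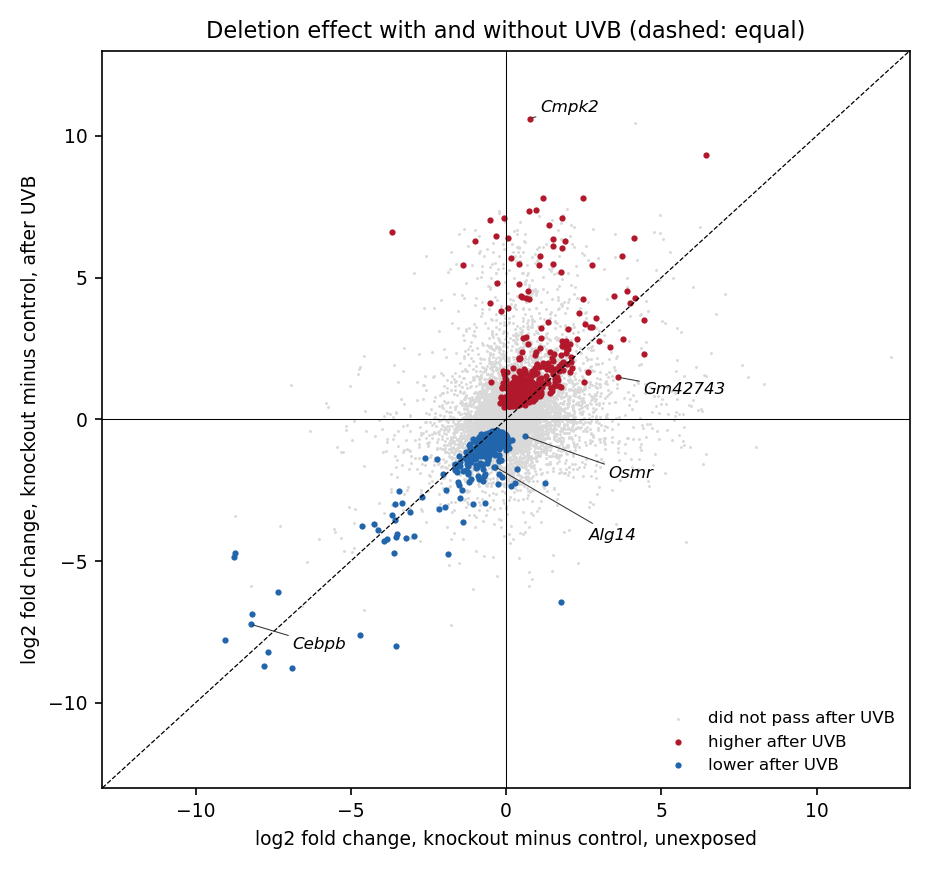
Each point is a tested gene, by its log2 difference between knockout and control in unexposed epidermis (horizontal) and after UVB (vertical), with genes called after UVB in red (418 higher) and blue (412 lower) and equal values on the dashed line. Most coloured points keep their sign, 93.5% of the red and 96.6% of the blue, and Osmr lies in the quadrant of opposite signs.

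The called genes lay on all autosomes and the X chromosome. Chromosome 16 had the highest share, 6.72% of its 551 tested genes, with 12 higher and 25 lower, of which 9 were the keratin-associated protein genes. The X chromosome had 3.13% of 543. Genes called lower spanned a median of 29.4 kb and those called higher 23 kb, beside 21.0 kb for all tested genes, and their exons summed to medians of 3941, 4326 and 3733 bases.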

How the data were processed

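RNA was measured in epidermis of 16 mouse samples in 4 groups of 4, 2 of them exposed to UVB. Per the labels, libraries were made with a directional kit, and the submitters' processing notes name FastQC, STAR, HTSeq and DESeq2, with no versions, while build and strand use are not stated there. The authors deposited raw counts per Ensembl gene (49585 genes), and columns were joined to samples by library number. The members and lists were chosen with earlier results of these data known. In edgeR 4.0.16 (R 4.3.3) filterByExpr kept 17741 genes, TMM scaled the libraries, and a robust quasi-likelihood model of all 16 libraries gave each group its own mean. P-values of the two-sided F tests were Benjamini-Hochberg adjusted across every tested gene (threshold 0.05), and SE was derived as the absolute log2 difference divided by √F. Names and positions came from GENCODE M21 (GRCm38) and promoters from RefSeq (GRCm38.p6), matched by symbol.

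Libraries were numbered by accession, and equal numbers pair nothing. Replicates differed by more than counting error (chi-square per degree of freedom of at least 55.1). Even numbers made up 68.8% of counts between 2 and 101 (50% of these integers are even), so counting intervals may be too narrow. Named genes were 11 fixed ones, up to 12 per direction with the largest change (mean of at least 1 CPM, no overlap), up to 10 per direction and 4 per list with the smallest p, and 6 for the difference test. Krt14, Itga6, Lama3, Acer2, Alox12e, Slpi, Defb3, Jag2 and the fibrillar collagen and endothelial markers with no call lay outside that rule and were chosen after their values were seen. Some genes the rule names are not reported here. Closely related and overlapping genes have uncertain counts. In simulated data edgeR recovered 57 of 100 genes changed 2-fold and 82 of 100 changed 4-fold, calling 2 unchanged genes. Alternatives were DESeq2 1.42.0, limma 3.58.1 voom, 3 other scalings, 2 other filters, the 8 exposed libraries alone, a term for sex and leaving out each exposed library. Summaries were made in Python 3.11.15 (numpy 2.4.6, pandas 2.3.3) and plots with matplotlib 3.10.9.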

Additional observations from a re-analysis of the deposited data

Results flagged for a closer look

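Of 288 groups of 4 values examined for the named genes, 15 held 1 library far from the other 3, beyond a value that independent normal values pass in about 5% of groups. That rate may not hold here, because many genes were picked by their p-values and some groups held 0 in all libraries but 1. The 15 are therefore a description, and whether chance gives this number was not tested.

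Exposed control library 2 stood apart for Ifi44 (0.778 CPM, the others 0), Cxcl11 (0.114 CPM, the others 0), Npy (0.137 CPM, the others 0), Thbd (50.9 CPM, the others 13.6 to 17.2) and Il1f5 (2270 CPM, the others 1500 to 1530). Exposed control library 1 stood apart for Hamp2 (0.222 CPM, the others 0 to 0.0304) and Alox12e (70.3 CPM, the others 31.8 to 37.1). Exposed knockout library 1 did so for Lce1k (111 CPM, the others 21.6 to 34.8), Gm9522 (0.193 CPM, the others 0.019 to 0.0377), Tef (52.9 CPM, the others 42.0 to 43.8) and Krtap19-2 (0 CPM, the others 0.128 to 0.151). Exposed knockout library 2 was low for Smpd1 (175 CPM, the others 194 to 197). Exposed knockout library 4 was high for Irf9 (156 CPM, the others 91.8 to 102) and low for Alg14 (5.5 CPM, the others 7.37 to 7.72) and Mmp9 (13.5 CPM, the others 19.6 to 20.3).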

How the results depend on the processing

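DESeq2 gave 711 genes higher and 805 lower, total counts only 1247 and 179, and the 8 exposed libraries alone 240 higher. Leaving out 1 exposed library gave 229 to 831 higher and 190 to 525 lower. Of the main calls, DESeq2 kept 99.9%, limma voom 81.3%, total counts only 71.7%, the 8 exposed libraries 60.2% and the fits without 1 library 49.2% to 86.4%. Of the 139 named genes none reversed under any alternative, and 49 of 132 calls ended without at least 1 library, and 21 calls ended with total counts only. Lower members moved as follows: late cornified envelope 11 (DESeq2), 11 (voom), 4 (total counts only) and 13 (sex term), cornified 11 (DESeq2), 2 (total counts only) and 3 (exposed libraries), keratin-associated 15 (DESeq2) and 5 (no filter), sterol 1 (total counts only) and 3 (exposed libraries), and interleukin 1 and 36 3 (total counts only). Higher members moved to 12 (basal) and 11 (Langerhans) with total counts only and to 26 interferon effectors in the exposed libraries. Without 1 library the ranges in the order of these lists were 3 to 7, 2 to 8, 3 to 12, 4 to 7 and 4 to 7 lower, and 5 to 9 basal, 0 to 6 Langerhans and 32 to 43 interferon effectors higher. At a threshold of 0.01 the calls shared with unexposed epidermis were 56. The difference test, repeated after seeing the data, gave 31 genes with DESeq2, 2 without a filter and 0 to 2 without 1 library. Where not shown by an alternative's construction, the cause was not tested. No paired analysis was possible because the labels give the libraries no shared replicate numbers. Depth limits calls of genes near 0 counts, where fitted differences rest on the model.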
